A study of Mus musculus with 4 samples.

Results

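DNA replication and repair genes are described here in MMTV-Neu mammary tumours that lack the receptor tyrosine kinase AXL and in tumours that keep it. The members are 42 named mouse genes, all of which matched 1 gene identifier in the count files and all of which passed the filter on low counts, out of 38293 gene rows and 14330 genes tested. They were sorted by role into origin licensing (10 genes), helicase activation (4), polymerases, clamp and lagging-strand processing (10), nucleotide supply (4), G1/S regulators (4), recombination, crosslink repair and checkpoint (7), and base excision and mismatch repair (3). The series holds 2 tumour libraries labelled AXL KO and 2 labelled WT, all from the FVB strain and all from mice with the MMTV-Neu transgene, in which a mammary tumour virus promoter drives the Neu (Erbb2) oncogene mainly in mammary epithelium. The labels give no age, and they do not say whether the libraries of a group came from separate animals. The p-values here reflect no more than the spread between the 4 libraries, part of which may be technical.

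The libraries held between 18929743 and 33131739 reads in genes, the most in AXL KO replicate 2, and levels are given as CPM, read counts scaled to a common library size with TMM factors. Axl was at 4.75 and 4.89 CPM in AXL KO replicates 1 and 2, against 61.8 and 35.2 CPM in WT replicates 1 and 2, in the direction the labels give. The mammary epithelial genes Krt8, Krt18 and Epcam were at 529 to 1366 CPM in every library. Erbb2 was measured at 19776 and 19975 CPM in AXL KO, against 10968 and 12594 CPM in WT. The B cell markers Cd79a and Ms4a1 stayed under 0.5 CPM throughout. WT replicate 2 stands apart from the other 3 libraries for hypoxia targets, mitosis genes and T cell markers, and results are therefore given with and without it. The library descriptions share a prefix in 3 cases, and AXL KO replicate 2 has another. Since that prefix holds 1 library of 1 group, values within the shared prefix are those without AXL KO replicate 2.

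A cell copies its DNA once per cycle in a fixed order. In G1 the origin recognition complex, CDC6 and CDT1 load the MCM helicase on origins, CDC45 and the GINS complex then switch the helicase on, and polymerases held by the PCNA clamp copy the strands from nucleotides made by ribonucleotide reductase and thymidylate synthase. E2F transcription factors, held back by the RB family until cyclin-dependent kinases release them, drive most of these genes at the G1/S boundary, and repair genes of homologous recombination are transcribed in the same window. In a bulk tumour sample, fewer cycling cells and less of each transcript per cycling cell cannot be told apart.

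No replication or repair gene passed the test between AXL KO and WT tumours, and all but 1 had overlapping groups. With edgeR (quasi-likelihood, adjusted p under 0.05) 0 of the 42 members were called, and 0 of all genes tested (0%). Axl itself, with a log2 difference of −3.33, was thus among the genes not called. A lack of calls here does not show a lack of difference. At an unadjusted p under 0.05 there was 1 member, Xrcc1, which was lower in AXL KO, while 2.19% of all genes tested reached that level, 1.04% of all genes tested as lower. DESeq2 also called 0 members, against 0.112% of all genes tested, and Xrcc1 was again the 1 member lower at an unadjusted p under 0.05, beside 2.02% of all genes. The log2 difference, AXL KO minus WT, was negative for 35 members and positive for 7, with a median of −0.19, beside a median of −0.0019 and a share of 50.3% negative over all genes tested. In 1 member, 2.38%, the AXL KO values were each under the lower WT value, where 14.5% of all genes tested had this order. The opposite order, each AXL KO value over the higher WT value, held for 0 members and 14.7% of all genes tested, so that 29.2% of all genes had groups that did not overlap.

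What split the libraries instead was a division that cuts across the genotypes. AXL KO replicate 1 and WT replicate 1 were low, and AXL KO replicate 2 and WT replicate 2 were high. AXL KO replicate 2 exceeded AXL KO replicate 1 in 41 of 42 members, and WT replicate 2 exceeded WT replicate 1 in 41 of 42, where 49.7% and 50.9% of all genes tested did so. Both gaps had this direction in 40 members (95.2%), against 22.8% of all genes tested. The median gap was 0.57 on the log2 scale within AXL KO and 0.70 within WT, while the median difference between the group means on the same scale was −0.16. The larger of both within-group gaps exceeded the difference between groups in 41 of 42 members (97.6%), as it did in 84.8% of all genes tested. The labels do not say whether equal replicate numbers mark a shared litter, day or batch, and the libraries were compared unpaired. The high libraries AXL KO replicate 2 and WT replicate 2 do not share a description prefix. AXL KO replicate 2 differs from AXL KO replicate 1 in prefix and in depth (33131739 against 19161051 reads in genes), and the part of either in the gap was not tested.

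**Figure D1:**
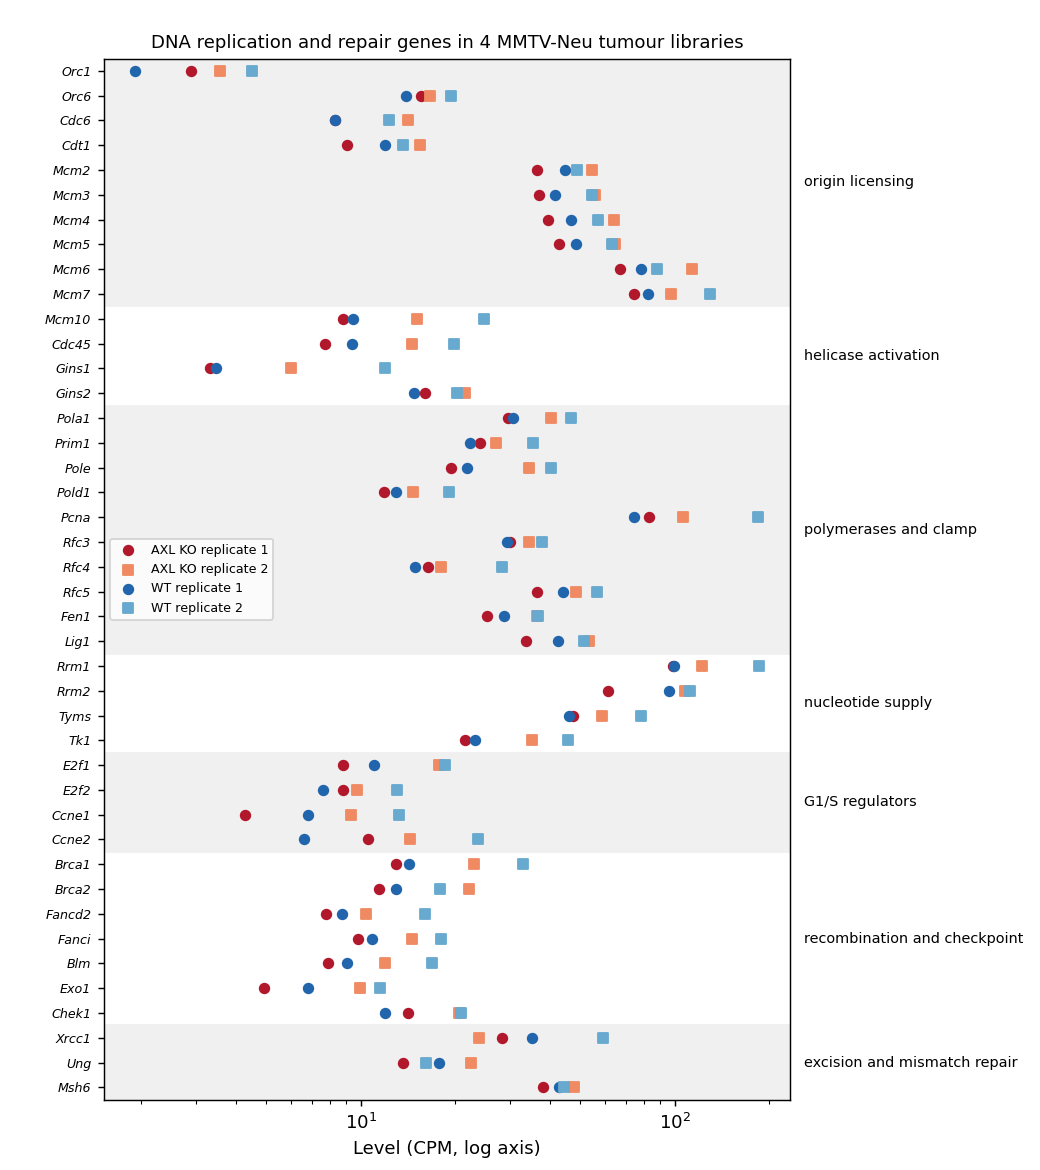
Level of each of the 42 members (rows, grouped by role) in CPM on a log axis, with 1 point per library. AXL KO replicate 1 and WT replicate 1 (circles) lie to the left of AXL KO replicate 2 and WT replicate 2 (squares) in most rows, and Xrcc1 is the row in which both AXL KO points lie left of both WT points.

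The summed level of the members was 1089 and 1553 CPM in AXL KO replicates 1 and 2, against 1204 and 1849 CPM in WT replicates 1 and 2. The mean deviation from each gene's average over the 4 libraries was −0.37 and 0.18 on the log2 CPM scale in the AXL KO libraries, against −0.25 and 0.44 in the WT libraries. In AXL KO replicate 1 all 42 members lay under their own average, and in WT replicate 1 all but 3 did. WT replicate 2 was the highest library for 30 members (71.4%, against 34.6% of all genes tested) and AXL KO replicate 2 for the other 12. AXL KO replicate 1 was the lowest for 29 members (69.0%, against 24.7% of all genes tested), WT replicate 1 for 12 and AXL KO replicate 2 for 1.

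**Figure D2:**
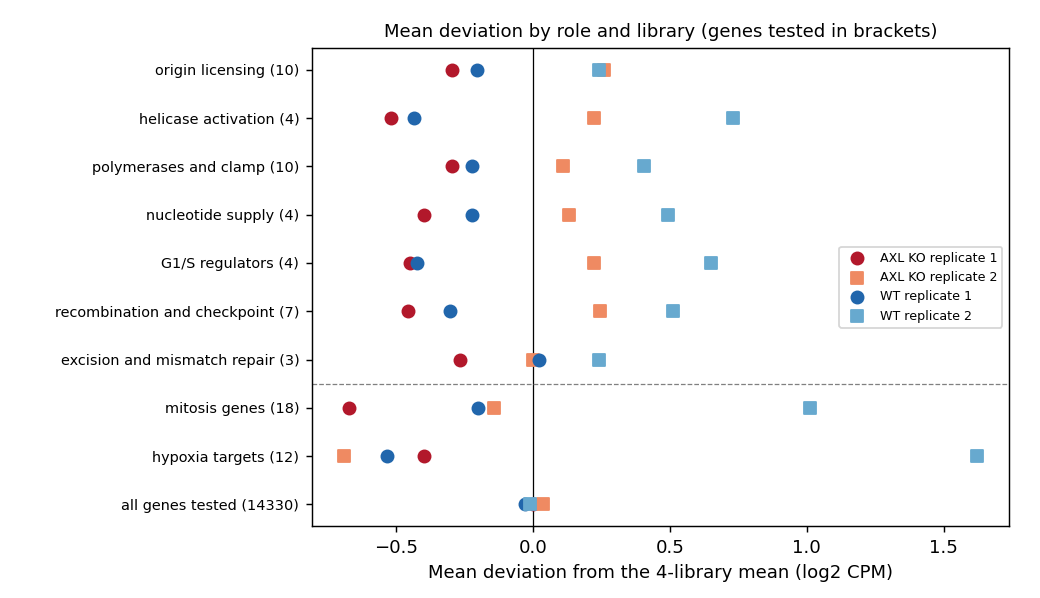
Mean deviation from the 4-library mean in log2 CPM (horizontal axis) for the members by role, and for mitosis genes, hypoxia targets and all genes tested, with 1 point per library. In the first 6 roles AXL KO replicate 2 and WT replicate 2 (squares) lie right of AXL KO replicate 1 and WT replicate 1 (circles), whereas for mitosis genes and hypoxia targets WT replicate 2 lies alone at 1.01 and 1.62.

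Origin licensing genes had overlapping groups throughout, with a median log2 difference of −0.05 and a range from −0.30 to 0.12. The helicase core genes Mcm2, Mcm3, Mcm4, Mcm5 and Mcm6 had the same order of libraries, with AXL KO replicate 2 the highest. Mcm2 was at 36.4 and 54.6 CPM in AXL KO, against 44.8 and 49.1 CPM in WT. Mcm5 was at 42.8 and 64.7 CPM in AXL KO and at 48.5 and 63.4 CPM in WT. For both genes the WT values fell between the AXL KO values, so the groups overlapped fully. Mcm3 had 36.9 and 55.9 CPM in AXL KO and 41.7 and 54.5 CPM in WT. Mcm4 had 39.5 and 64.1 CPM in AXL KO and 46.7 and 57.0 CPM in WT, and its fitted log2 difference was −0.00034 ± 0.29 (SE). Mcm6 had 67.2 and 113 CPM in AXL KO and 78.1 and 88.2 CPM in WT. Mcm7 departed from the other subunits, at 74.3 and 97.6 CPM in AXL KO against 82.2 and 130 CPM in WT, and had the lowest log2 difference of the role (−0.30 ± 0.28, SE).

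Because the MCM proteins act as a hexamer of 1 copy each, their transcripts can be set side by side per length of the messenger RNA (RPKM, the CPM divided by the length in kilobases). The highest subunit, Mcm7 in each library, exceeded the lowest 2.32-fold and 2.03-fold in AXL KO replicates 1 and 2, against 2.13-fold and 3.01-fold in WT replicates 1 and 2. The median subunit was at 12.4 and 18.8 RPKM in the AXL KO libraries, against 14.0 and 18.4 RPKM in the WT libraries. Mcm7 shares 385 exon bases with genes on the other strand and hosts the microRNA genes Mir25 and Mir93, so its level is less certain than those of the other subunits.

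The loading factors were less abundant. Orc1, which encodes a subunit of the origin recognition complex, was at 2.88 and 3.57 CPM in AXL KO and 1.92 and 4.50 CPM in WT, on 41 to 119 reads per library. Orc6 was at 15.6 and 16.6 CPM in AXL KO and 13.9 and 19.5 CPM in WT. For both genes the AXL KO values lay between the WT values. Cdc6, the loader ATPase, had 8.28 and 14.1 CPM in AXL KO and 8.28 and 12.4 CPM in WT. Cdt1, which brings the MCM helicase to origins, was at 9.03 and 15.5 CPM in AXL KO and 12.0 and 13.7 CPM in WT. The log2 differences of these 4 genes ran from −0.06 to 0.12, under their standard errors.

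Most licensing genes with a promoter window shared a sequence feature. Promoter letters were not used to choose the members, but E2F factors drive most of these genes, so the list and the feature are not independent. The comparison with all genes below was not matched for base composition. An E2F-type octamer (TTTCCCGC, TTTCGCGC, TTTGCCGC or TTTGGCGC, read on both strands) was searched in RefSeq promoter windows on GRCm38.p6, from 250 bases before to 50 bases after each annotated start. Of the members 35 had a window and 14 of these (40.0%) held an octamer in at least 1 window, where 2.60% of 27025 genes with a window did. By role the count was 7 of 9 licensing genes, 4 of 9 polymerase and clamp genes, 1 of 5 recombination genes, 1 of 3 G1/S regulators, 1 of 3 excision and mismatch repair genes, 0 of 2 helicase activators and 0 of 4 nucleotide supply genes. Shown are the 250 bases before the start of 3 licensing genes that hold the octamer, as examples of the role in which the octamer was most frequent. They are written 5′ to 3′ on the gene's strand with the octamers in capitals, for Cdc6 at chr11:98907901-98908150 on the plus strand, Mcm5 at chr8:75109259-75109508 on the plus strand and Mcm6 at chr1:128359706-128359955 on the minus strand.
Cdc6: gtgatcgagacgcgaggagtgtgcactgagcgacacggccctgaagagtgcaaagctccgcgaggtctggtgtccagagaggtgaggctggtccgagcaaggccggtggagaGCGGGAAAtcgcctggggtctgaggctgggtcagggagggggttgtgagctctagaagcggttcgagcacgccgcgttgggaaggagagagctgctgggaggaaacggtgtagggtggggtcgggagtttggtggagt
Mcm5: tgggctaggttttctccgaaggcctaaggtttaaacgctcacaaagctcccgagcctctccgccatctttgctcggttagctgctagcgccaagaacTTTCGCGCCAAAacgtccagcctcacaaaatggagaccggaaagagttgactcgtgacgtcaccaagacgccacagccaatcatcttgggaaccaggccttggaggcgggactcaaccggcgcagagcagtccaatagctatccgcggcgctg
Mcm6: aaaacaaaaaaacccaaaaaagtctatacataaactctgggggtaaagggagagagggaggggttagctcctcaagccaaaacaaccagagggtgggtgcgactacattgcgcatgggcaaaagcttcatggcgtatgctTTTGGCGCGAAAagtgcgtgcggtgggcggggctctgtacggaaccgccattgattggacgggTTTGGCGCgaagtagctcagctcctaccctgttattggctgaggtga
The Cdc6 octamer begins 138 bases before the RefSeq start. The Cdc6 window, octamer included, lies inside the GENCODE span of the gene, which begins at 98907801. In Mcm5 a pair of octamers on opposite strands overlap, beginning 153 and 149 bases before the start, and in Mcm6 such an overlapping pair begins 110 and 106 bases before it, with a further octamer at 47 bases. A match is a description of these letters and not of factor binding.

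Helicase activation genes had the lowest median log2 difference of the roles, −0.44, with 3 of 4 negative and every group overlapping. Gins1, a subunit of the GINS complex, was at 3.31 and 6.03 CPM in AXL KO, against 3.46 and 12.0 CPM in WT. Its log2 difference of −0.71 ± 0.67 (SE) had an unadjusted p of 0.335 and an adjusted p of 0.9997 in edgeR's quasi-likelihood test. WT replicate 2 alone was high, 2.81-fold above the mean of the other 3 libraries. Mcm10, which helps the helicase start, was at 8.81 and 15.1 CPM in AXL KO and 9.49 and 24.7 CPM in WT. Cdc45, the helicase partner, was at 7.69 and 14.6 CPM in AXL KO and 9.40 and 19.8 CPM in WT. In both genes WT replicate 2 was again the highest library and AXL KO replicate 2 the next. Gins2 did not follow, with 16.0 and 21.5 CPM in AXL KO against 14.8 and 20.3 CPM in WT. Gins2 shares 2758 exon bases with Gse1 on the other strand, and the strand setting of the counts is not given in the sources used here. How reads on the shared bases were counted, or whether they were set aside as ambiguous, is therefore not known. Ambiguous reads were 1.85% and 1.09% of the file total in AXL KO, against 0.981% and 0.635% in WT.

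All 10 polymerase, clamp and lagging-strand genes had negative log2 differences, from −0.45 to −0.06 with a median of −0.19, and the groups overlapped in each. Pcna, the sliding clamp, had the most transcript per length of all members in every library, at 54.5 and 70.2 RPKM in AXL KO and 49.0 and 121 RPKM in WT. In CPM it was at 82.7 and 107 in AXL KO, against 74.4 and 184 in WT. WT replicate 2 was thus 2.10-fold above the mean of the other 3 libraries, and the log2 difference of −0.45 ± 0.44 (SE) did not pass (unadjusted p = 0.355, edgeR adjusted p = 0.9997). A processed copy, Pcna-ps2, had 377 reads over the 4 libraries, which is small beside the 1549 to 3553 reads per library on Pcna.

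Rfc3, Rfc4 and Rfc5 encode subunits of the clamp loader, which places PCNA on DNA. Rfc3 was at 30.0 and 34.4 CPM in AXL KO and 29.3 and 37.8 CPM in WT. Rfc4 was at 16.5 and 18.1 CPM in AXL KO and 14.9 and 28.1 CPM in WT. Rfc5 had 36.5 and 48.4 CPM in AXL KO and 44.3 and 56.6 CPM in WT. WT replicate 2 was the highest library for all 3, while the lowest was WT replicate 1 for Rfc3 and Rfc4 and AXL KO replicate 1 for Rfc5.

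Polymerase alpha, which primes both strands, was represented by Pola1 and the primase gene Prim1. Pola1 was at 29.4 and 40.3 CPM in AXL KO and 30.6 and 46.7 CPM in WT. Prim1 was at 24.1 and 26.9 CPM in AXL KO and 22.3 and 35.5 CPM in WT. Pole, the leading-strand polymerase gene, ranged more widely, with 19.4 and 34.3 CPM in AXL KO and 21.8 and 40.3 CPM in WT. Pold1, the lagging-strand polymerase gene, had 11.9 and 14.7 CPM in AXL KO and 13.0 and 19.1 CPM in WT. In each of these 4 genes the highest library was WT replicate 2 and the second AXL KO replicate 2. Okazaki fragments are trimmed by FEN1 and joined by LIG1. Fen1 stood at 25.2 and 36.5 CPM in AXL KO and 28.7 and 36.6 CPM in WT, and Lig1 at 33.6 and 53.2 CPM in AXL KO and 42.6 and 51.3 CPM in WT. Most of Fen1 (2039 of 2422 merged exon bases) overlaps genes on the other strand, mainly Gm10143.

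All 4 nucleotide supply genes had negative log2 differences, from −0.37 to −0.23, and none passed the test. Per length, Rrm2 was the second most abundant member in every library after Pcna. The 2 subunits of ribonucleotide reductase differed in which libraries set them apart. Rrm1, the large catalytic subunit, was at 99.0 and 122 CPM in AXL KO, against 99.3 and 186 CPM in WT. Only WT replicate 2 was high for it. Rrm2, the subunit limited to cycling cells, was at 61.4 and 108 CPM in AXL KO, against 95.9 and 112 CPM in WT, and here AXL KO replicate 1 alone was low. Tyms, which makes thymidylate, was at 47.6 and 58.8 CPM in AXL KO and 46.2 and 78.2 CPM in WT. Tk1, the salvage kinase of S phase, had 21.6 and 35.1 CPM in AXL KO and 23.1 and 45.7 CPM in WT.

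The G1/S regulators E2f1, E2f2, Ccne1 and Ccne2 also had negative log2 differences, between −0.55 and −0.15. Ccne1, a cyclin partner of CDK2, was at 4.27 and 9.36 CPM in AXL KO and 6.83 and 13.3 CPM in WT, with a log2 difference of −0.55 ± 0.53 (SE). Ccne2, the second cyclin E gene, was at 10.6 and 14.3 CPM in AXL KO, against 6.59 and 23.7 CPM in WT. The AXL KO values lay between the WT values, and the gap within WT, 3.60-fold, was the widest of any member. E2f1, an activating E2F gene, was at 8.81 and 17.7 CPM in AXL KO and 11.0 and 18.5 CPM in WT. E2f2 was at 8.81 and 9.72 CPM in AXL KO and 7.62 and 13.0 CPM in WT. Ccne2 shares 609 exon bases with Ints8 on the other strand.

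Recombination, crosslink repair and checkpoint genes had a median log2 difference of −0.30, with 5 of 7 negative and every group overlapping. Brca1, which directs homologous recombination, was at 12.9 and 23.0 CPM in AXL KO, against 14.3 and 32.9 CPM in WT. Brca2, a mediator of homologous recombination, was at 11.4 and 22.1 CPM in AXL KO, against 13.0 and 17.9 CPM in WT. The library with most Brca1 was WT replicate 2 and that with most Brca2 was AXL KO replicate 2. Fancd2 and Fanci encode the pair of proteins that is ubiquitinated at crosslinks. Fancd2 was at 7.75 and 10.4 CPM in AXL KO and 8.74 and 16.1 CPM in WT, and Fanci at 9.83 and 14.6 CPM in AXL KO and 10.9 and 18.1 CPM in WT. Fanci shares 921 exon bases with Polg on the other strand. Blm, the Bloom helicase gene, had 7.85 and 12.0 CPM in AXL KO and 9.02 and 16.9 CPM in WT. Exo1, an end-resection nuclease gene, had 4.91 and 9.93 CPM in AXL KO and 6.83 and 11.6 CPM in WT. Chek1, the replication checkpoint kinase gene, was at 14.2 and 20.6 CPM in AXL KO and 12.0 and 20.8 CPM in WT, so that its libraries formed a low and a high pair of mixed genotype.

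Base excision and mismatch repair genes held both members that did not follow the division between low and high libraries. Xrcc1, the scaffold of single-strand break repair, was at 28.2 and 23.9 CPM in AXL KO, against 35.2 and 59.0 CPM in WT. It was the sole member with groups that did not overlap. Its mean was 26.0 ± 3.06 CPM in AXL KO and 47.1 ± 16.8 CPM in WT (SD, n = 2 each). The fitted log2 difference was −0.85 ± 0.30 (SE), or 1.81-fold lower. The difference did not pass edgeR's quasi-likelihood test (unadjusted p = 0.0359, adjusted p = 0.9997). DESeq2 gave it an unadjusted p of 0.0177. Without WT replicate 2 the log2 difference was −0.43, and the AXL KO libraries still lay below WT replicate 1, as did 33.7% of all genes tested.

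Xrcc1 lies on the plus strand of chromosome 7 from 24546289 to 24573440 (GRCm38), 1.18 Mb from Axl, and is the nearest member to it. The next were Ccne1 at 12.3 Mb and Lig1 at 12.4 Mb, which had log2 differences of −0.55 and −0.11 with overlapping groups. Within 2 Mb of Axl, a distance chosen after these values were seen, 74 other genes were tested including Xrcc1. Of these 18 (24.3%) had AXL KO values entirely below WT and 2 (2.70%) entirely above, against 14.5% and 14.7% of all genes tested. Their median log2 difference was −0.04, and Cyp2f2 and Xrcc1 were the 2 with an unadjusted p under 0.05. Whether position on the chromosome has a part in the Xrcc1 values was not tested. The 250 bases before the RefSeq start of Xrcc1, at chr7:24546449-24546698 on the plus strand and inside the GENCODE span of the gene, are shown because it was the member whose groups did not overlap. They hold no E2F-type octamer, so there are no capitals.
Xrcc1: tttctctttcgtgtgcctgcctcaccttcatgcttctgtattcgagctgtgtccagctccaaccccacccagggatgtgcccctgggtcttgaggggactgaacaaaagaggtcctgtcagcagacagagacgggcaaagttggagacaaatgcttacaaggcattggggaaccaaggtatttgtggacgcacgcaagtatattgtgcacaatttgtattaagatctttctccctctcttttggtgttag

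Ung, which removes uracil from DNA, was at 13.7 and 22.5 CPM in AXL KO, against 17.8 and 16.2 CPM in WT, and was the member in which WT replicate 2 did not exceed WT replicate 1. Msh6, a mismatch recognition subunit gene, varied least within WT of all members, at 38.2 and 47.9 CPM in AXL KO and 43.0 and 44.5 CPM in WT. Its log2 difference of −0.02 ± 0.20 (SE) had the smallest standard error of the members.

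**Figure D3:**
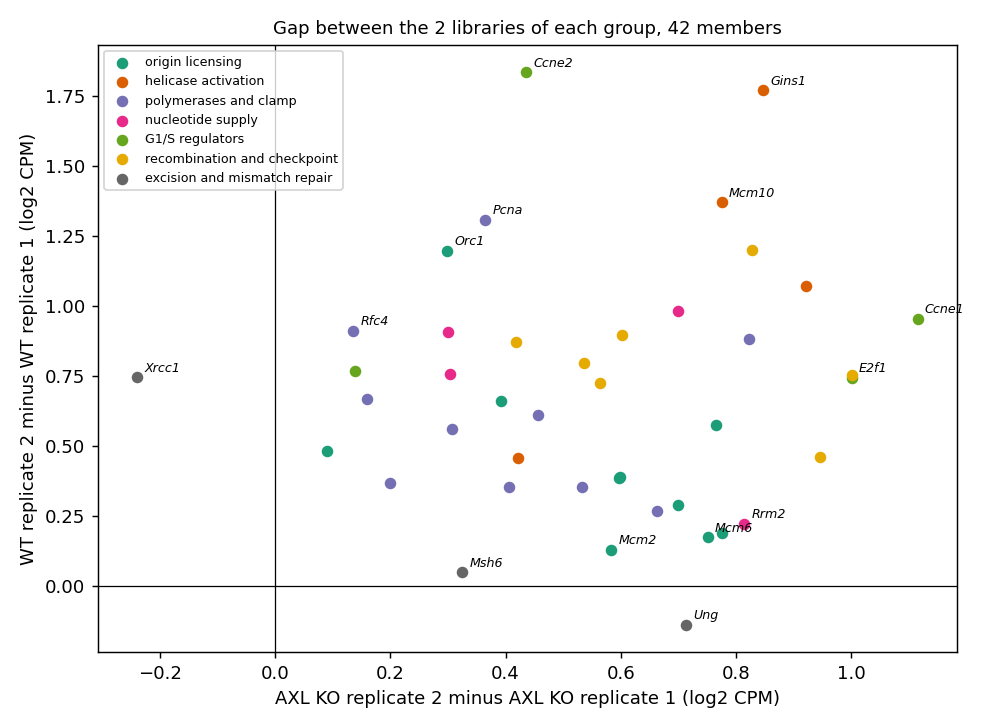
Each point is 1 of the 42 members, with the log2 CPM gap between AXL KO replicates 2 and 1 on the horizontal axis and that between WT replicates 2 and 1 on the vertical axis, coloured by role. All points but Xrcc1 and Ung lie in the upper right part, where both gaps are positive, as in 40 members.

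The sign of the group difference depended on which library was counted. Without WT replicate 2 the median log2 difference of the 42 members was 0.18, with 39 positive and 3 negative, where 47.8% of all genes tested were negative. Without WT replicate 1 it was −0.47, with 40 negative, beside a median of 0.018 over all genes tested. Without AXL KO replicate 1 the median was 0.03 (23 positive, 19 negative). Without AXL KO replicate 2, which leaves the libraries of the shared prefix, it was −0.47 with all 42 negative. Over all genes tested the medians of these runs were −0.018 and −0.031. Members with groups that did not overlap numbered 13 without WT replicate 2, of which 12 were higher in AXL KO, and 30 without WT replicate 1, all of them lower in AXL KO. These counts have shares of 33.2% higher without WT replicate 2 and 38.8% lower without WT replicate 1 among all genes tested beside them. No member passed edgeR with any library left out, and without WT replicate 1, when 1.51% of all genes tested passed, the smallest member adjusted p was 0.0825, for Xrcc1. With a library left out, the remaining lone library is assumed to vary like the other group.

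**Figure D4:**
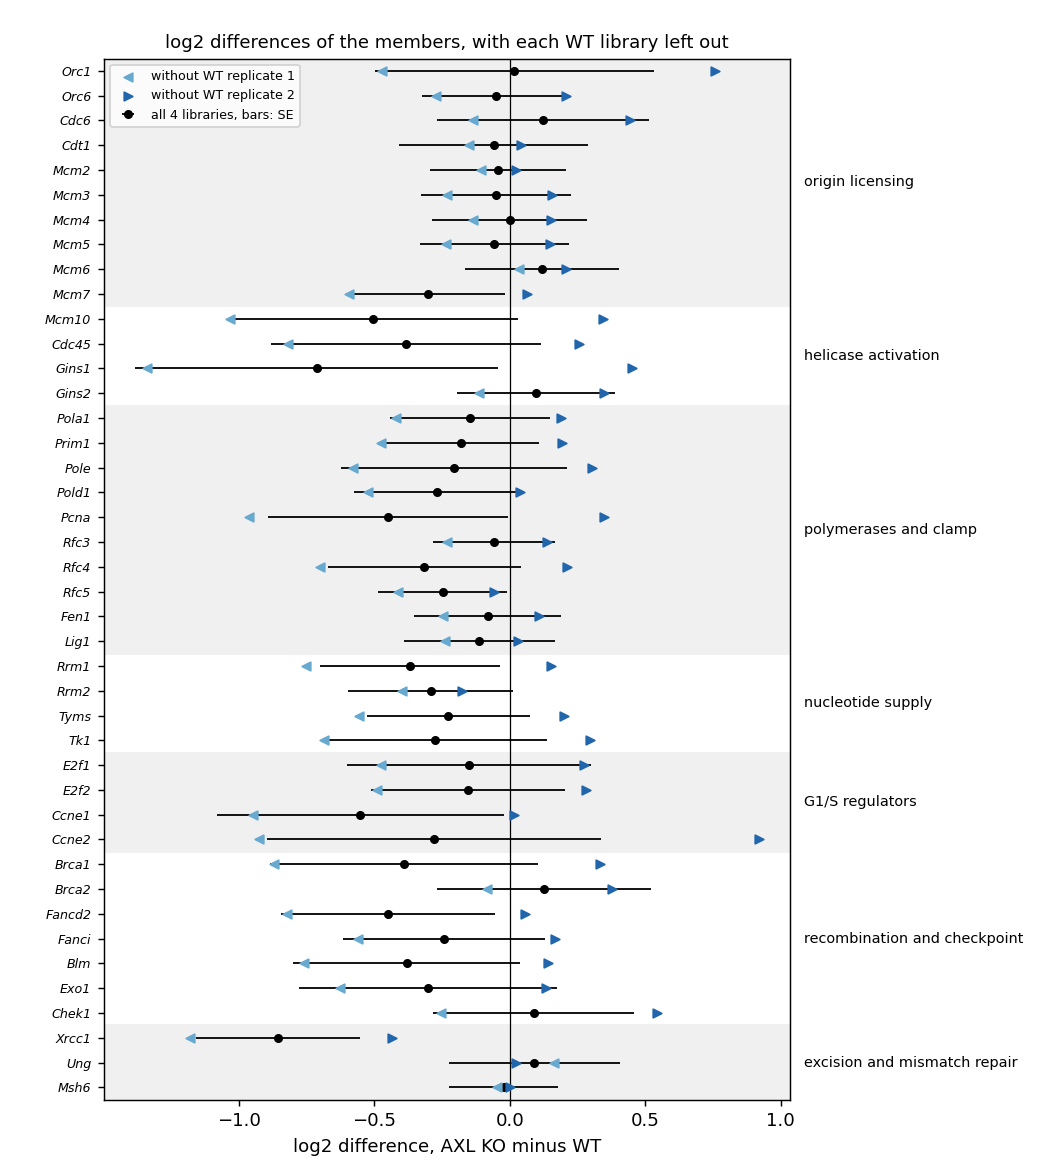
log2 difference, AXL KO minus WT, of each member with all 4 libraries (black points, bars are SE) and with WT replicate 1 or WT replicate 2 left out (triangles). The triangles without WT replicate 2 lie at or right of 0 except for Xrcc1, Rrm2 and Rfc5, and those without WT replicate 1 lie left of 0 except for Mcm6 and Ung.

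The same dependence ran through the roles. Without WT replicate 2 the median log2 difference was 0.15 for licensing genes, 0.35 for helicase activators, 0.16 for polymerases and clamp, 0.18 for nucleotide supply, 0.28 for G1/S regulators and 0.17 for recombination genes. Without WT replicate 1 the same medians were −0.19, −0.93, −0.45, −0.62, −0.71 and −0.63. Of these 6 roles the licensing genes moved least with the choice of WT library and the helicase activators most. For excision and mismatch repair genes the median stood at 0.0028 with WT replicate 2 left out, against −0.05 when WT replicate 1 was left out instead.

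The other genes of the pathway were also mostly negative with none past the test. Of 39 further replication genes 27 had negative log2 differences (median −0.16), 3 lay below and 3 above WT in both AXL KO libraries (7.69% each, against 14.5% and 14.7% of all genes tested), and 0 passed edgeR over all genes. Dbf4, the activator of the CDC7 kinase that fires origins, was at 13.8 and 18.2 CPM in AXL KO, against 21.8 and 38.5 CPM in WT (log2 difference −0.91 ± 0.35, SE). It was the 1 gene of that list with an unadjusted p under 0.05 (0.0463, edgeR adjusted p = 0.9997). Pole2 was at 15.5 and 15.6 CPM in AXL KO and 18.4 and 24.3 CPM in WT. Prim2, a primase subunit gene, had overlapping groups, at 11.4 and 15.6 CPM in AXL KO and 15.1 and 25.1 CPM in WT. On the other side Samhd1, which degrades deoxynucleotides, was at 180 and 178 CPM in AXL KO and 167 and 131 CPM in WT.

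Of 29 further recombination and crosslink genes 24 were negative (median −0.19) and 0 passed. In 6 of them (20.7%) both AXL KO libraries lay below WT and in 2 (6.90%) above, against 14.5% and 14.7% of all genes tested. Rbbp8, which encodes the resection factor CtIP, was at 10.9 and 14.7 CPM in AXL KO and 15.1 and 29.8 CPM in WT. Chek2 stood at 16.1 and 19.3 CPM in AXL KO and 19.4 and 32.5 CPM in WT, while the damage kinase gene Atm was at 44.9 and 64.8 CPM in AXL KO and 40.5 and 39.6 CPM in WT. Of 29 further excision, mismatch and end-joining genes 20 were negative (median −0.08) and 0 passed. Both AXL KO libraries lay below WT in 8 (27.6%) and above in 2 (6.90%), against 14.5% and 14.7% of all genes tested. The genes named next are among the 8. Examples are Ercc3, a helicase gene of nucleotide excision repair, at 44.1 and 49.1 CPM in AXL KO and 59.6 and 69.9 CPM in WT, Mutyh, an adenine glycosylase gene, at 1.28 and 1.35 CPM in AXL KO and 2.29 and 2.67 CPM in WT, and Lig3, whose product is a partner of XRCC1, at 165 and 172 CPM in AXL KO and 193 and 235 CPM in WT. Without WT replicate 2 the medians of these 3 lists were 0.10, 0.06 and −0.0099.

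Hypoxia targets had another order of libraries than the members. The mean of the mitosis genes had the same order as that of the members, with WT replicate 2 farther above the rest, but single genes differed. In 8 of 18 mitosis genes (44.4%) both AXL KO values lay below both WT values, against 14.5% of all genes tested and 1 of 42 members. Without WT replicate 2 the median log2 difference of the mitosis genes was −0.18, with 14 negative, where that of the members was 0.18. The 18 mitosis genes had a mean log2 deviation of −0.67 and −0.14 in AXL KO, against −0.20 and 1.01 in WT. Minus the members' mean in the same library, this was −0.31 and −0.32 in AXL KO and 0.05 and 0.58 in WT. AXL KO replicate 2 thus had replication genes above and mitosis genes below their own 4-library averages. The mitosis average includes WT replicate 2 at 1.01, and by these means AXL KO replicate 2 was the next highest library for both lists. The 12 hypoxia targets were at −0.40 and −0.69 in AXL KO and −0.53 and 1.62 in WT. The letters TTTGAA, known as the CHR element of mitotic promoters, were searched on both strands in the same windows. They were found for 4 of 35 members (11.4%), 11 of 15 mitosis genes (73.3%) and 20.2% of all genes with a window. Because the element is known from mitotic promoters, the mitosis list and these letters are not independent. Base composition was not matched here either.

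Fibroblast and adipocyte markers were, like the members, higher on average in replicate 2 of each genotype. Endothelial markers were so within AXL KO, while within WT their summed level was 89.5 and 88.8 CPM in replicates 1 and 2. The 5 fibroblast markers had mean log2 deviations of −0.94 and 0.44 in AXL KO and 0.10 and 0.40 in WT, with summed levels of 262 and 884 CPM in AXL KO and 664 and 954 CPM in WT. The 4 adipocyte markers were at −0.02 and 0.32 in AXL KO and −0.74 and 0.45 in WT, the 4 endothelial markers at −0.17 and 0.19 in AXL KO and −0.06 and 0.03 in WT, and the 5 macrophage markers at −0.27 and 0.35 in AXL KO and 0.17 and −0.26 in WT. Summed over the 3 T cell markers that passed the filter, the level was 2.08 and 3.36 CPM in AXL KO and 3.41 and 0.419 CPM in WT. The part of these markers in the member values was not tested. The hypoxia targets, mitosis genes and T cell markers set WT replicate 2 apart, and their part was not tested either.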

How the data were processed

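RNA of 4 MMTV-Neu mammary tumour libraries, 2 AXL KO and 2 WT, was sequenced. The authors deposited raw read counts per gene, 1 file per library, with 38293 gene rows. A further 5 lines per file name no gene and entered neither depth nor test. As a share of the file total, reads outside genes took 5.27% to 8.11%, ambiguous reads 0.635% to 1.85% and alignments that were not unique 23.2% to 28.1%. The build is GRCm38 and the tools named are TopHat2 2.0.10 and CASAVA 1.8, then DESeq2 1.4.5 and HTSeq 0.5.3, per the submitters' processing notes, which give no roles. The sources used here do not give the annotation release or the strand setting. Symbols (36345 identifiers matched) and coordinates came from GENCODE M21 on GRCm38, and RPKM used the longest protein-coding transcript of its basic set.

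Genes were kept with filterByExpr by group (14330 of 20587 with a count), scaled with TMM, and tested with edgeR 4.0.16 (glmQLFit with legacy=FALSE, glmQLFTest) in R 4.3.3, with Benjamini-Hochberg adjustment over all genes tested, called at 0.05. The estimated common dispersion was 0.0961. Deviations use log2 CPM (prior count 2). Tried besides were each library left out, a replicate block, limma-voom (limma 3.58.1), DESeq2 1.42.0, scaling by DESeq2 size factors or library totals, and filters of none or 1 CPM in 2 libraries. The test was run on simulated counts, with a pass mark set only on changes larger than that of any member. That check does not show that differences of the members' size would be called. Pairs of libraries differed by a chi-square of 30.3 to 151 per degree of freedom, so none repeated another. Members had 41 to 4062 reads per library. The members, roles and lists were chosen with earlier results of these data known. All members are named, with values in every library, and of the other replication, repair, RB and E2F lists up to 4 genes with the smallest unadjusted p.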

Additional observations from a re-analysis of the deposited data

How the results depend on the processing

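With 2 libraries per group, 1 library set most values. The count of genes passing edgeR over all genes was 0 and ran from 0 to 216 with a library left out, 216 without WT replicate 1, and DESeq2 called 16. The count of members called was 0 under every alternative run. Their median log2 difference stayed between −0.21 and −0.12 under other scalings, filters and tests, and ran from −0.47 to 0.18 with a library left out. The count of members with groups that did not overlap, 1 of 42, ran from 13 to 31 with a library left out. It was 30 without WT replicate 1 and 13 without WT replicate 2. Without AXL KO replicate 2 it was 31, all lower in AXL KO, where 31.4% of all genes were lower and 28.5% higher without overlap. Without AXL KO replicate 1 it was 13, of which 12 were higher and 1 lower, beside 25.8% higher and 26.8% lower of all genes. It has no value under DESeq2, limma-voom or the replicate block, which do not change the levels.

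With the replicate number as a replicate block, edgeR called 0 genes and 0 members, the median over the members was −0.17, and no call changed. Over all genes tested, the gaps between replicates of AXL KO and WT correlated at −0.045 (2 pairs). The labels do not say that a number marks a shared animal, litter or day, so no pairing was assumed, and whether one exists was not settled by this value.

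The direction of a member's log2 difference turned in 32 of 42 without WT replicate 2, 16 without AXL KO replicate 1, 7 without AXL KO replicate 2 and 5 without WT replicate 1. Xrcc1 and Rfc5 kept a negative sign under every alternative run. Scaling, filter and test settings turned 3 members, to −0.0030 for Orc1 with library totals, to 0.0077 without the low-count filter and 0.0018 with the stricter filter for Mcm4, and to 0.053 for Ccne2 with limma-voom. Log2 differences of the members that turned are given as the lowest to the highest value with 1 library left out. Among licensing genes the range was −0.47 to 0.76 (Orc1), −0.27 to 0.21 (Orc6), −0.33 to 0.45 (Cdc6), −0.52 to 0.27 (Cdt1), −0.38 to 0.21 (Mcm2), −0.40 to 0.21 (Mcm3), −0.41 to 0.30 (Mcm4), −0.40 to 0.21 (Mcm5), −0.32 to 0.44 (Mcm6) and −0.59 to 0.065 (Mcm7). Of the helicase activators the range was −1.03 to 0.34 (Mcm10), −0.94 to 0.26 (Cdc45), −1.34 to 0.45 (Gins1) and −0.15 to 0.35 (Gins2). For polymerase and clamp genes the range was −0.42 to 0.19 (Pola1), −0.48 to 0.19 (Prim1), −0.69 to 0.30 (Pole), −0.52 to 0.038 (Pold1), −0.96 to 0.35 (Pcna), −0.23 to 0.14 (Rfc3), −0.70 to 0.21 (Rfc4), −0.39 to 0.16 (Fen1) and −0.50 to 0.18 (Lig1). In nucleotide supply the range was −0.75 to 0.15 (Rrm1), −0.77 to 0.054 (Rrm2), −0.56 to 0.20 (Tyms) and −0.69 to 0.30 (Tk1). The G1/S regulators spanned −0.76 to 0.27 (E2f1), −0.49 to 0.28 (E2f2), −1.25 to 0.015 (Ccne1) and −0.92 to 0.92 (Ccne2). In recombination and checkpoint genes the range was −0.88 to 0.33 (Brca1), −0.45 to 0.52 (Brca2), −0.82 to 0.057 (Fancd2), −0.57 to 0.17 (Fanci), −0.76 to 0.14 (Blm), −0.92 to 0.13 (Exo1) and −0.25 to 0.54 (Chek1). In excision and mismatch repair the range was −0.33 to 0.40 (Ung) and −0.21 to 0.13 (Msh6).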

Other observations

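Cyclin-dependent kinase inhibitors, which restrain the kinases that release E2F, are represented by 7 genes of the RB and E2F list. In AXL KO 3 of the 7 lay entirely below WT and 1 entirely above, against 14.5% and 14.7% of all genes tested, and none passed edgeR. Cdkn1a was at 17.0 and 16.1 CPM in AXL KO, against 20.4 and 74.7 CPM in WT. Cdkn2a was at 0.961 and 1.23 CPM in AXL KO and 2.85 and 1.41 CPM in WT, and Cdkn2d at 9.51 and 10.9 CPM in AXL KO and 11.2 and 21.3 CPM in WT. Cdkn1c ran the other way, at 1.71 and 1.41 CPM in AXL KO and 1.22 and 0.628 CPM in WT, and was named after its values were seen. Ccna2, the S phase cyclin gene of the same list, was at 56.9 and 80.4 CPM in AXL KO and 75.0 and 140.4 CPM in WT. Of the 26 genes of the RB and E2F list 19 had negative log2 differences (median −0.14) and 0 passed edgeR over all genes. In the whole list 5 genes (19.2%) lay entirely below WT and 3 (11.5%) entirely above. The 7 inhibitors are a part of it that was not set up as a list of its own. Cdkn1a and Cdkn2d were highest in WT replicate 2, which also held the highest level of most members, and Cdkn2a was highest in WT replicate 1.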
